A study of Mus musculus with 26 samples.

Results

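The transcripts of 7 genes that act in mitosis, Nusap1, Aurka, Cenpe, Kif11, Bub1, Top2a and Mki67, were followed across a mouse osteosarcoma series. The genes were taken as a named list out of 12887 measured, and every probe set annotated to one of them was used, 15 of the 45101 on the array. Of these, 12 passed the filter on dim probe sets, and each gene kept at least 1. Transcripts were measured on 26 one-colour arrays: 3 control cultures of wild-type osteoblasts, which lay down bone, obtained by differentiation in vitro, 15 osteosarcomas taken as primary tumours, 4 secondary tumours, and 4 cell lines. The secondary tumours numbered 29, 64 and 94 are labelled as transplants, and number 66 as tissue of a tumour that an osteosarcoma line gave rise to, although its title calls it a line. The titles of all 4 carry the prefix OPflR, which the labels do not explain. No genotype, strain, age or anatomical site is given for any tumour, and the samples share no stated treatment. Nothing states that the osteoblast cultures came from separate mice, so they may be technical replicates. The p-values against them count the 3 cultures as independent samples and rest on a spread shared by all 4 groups.

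When a cell divides, microtubules form a spindle that attaches to each chromosome at its kinetochore and pulls the sister chromatids apart. The genes for this machinery are switched on together in late S phase and G2, largely through the MuvB complex with B-Myb and FoxM1, and are repressed in resting cells by the DREAM complex. Their transcripts are therefore widely read as a measure of how many cells of a tissue are dividing. In bulk samples such as these, fewer dividing cells and less transcript per dividing cell cannot be told apart.

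The promoters of such genes often carry CCAAT boxes, bound by NF-Y, and a cell cycle homology region, known as CHR, which is bound by MuvB. RefSeq windows of assembly GRCm38.p6, from 250 bases before to 50 after each gene's start, were found for all 7 genes and searched on both strands for CCAAT and for the CHR letters TTTGAA and TTCGAA, none of which overlap each other here. CCAAT was found in 6 of the 7 windows and in 37.4% of all 32851 windows. At least 1 CHR form was found in 5 of the 7 and in 19.2% of all windows, and both CCAAT and a CHR form in 5 of the 7 and in 7.52%. A match is a description of the letters only. The 250 bases before the start are printed for 4 genes because they span the range of matches: Top2a with the most, Mki67 and Kif11 with both kinds, and Nusap1 with neither. Capitals mark a match on either strand, where ATTGG and TTCAAA are CCAAT and TTTGAA read on the other strand. Each sequence runs 5′ to 3′ on the strand of its gene. They lie at chr11:99024190-99024439 and chr7:135716380-135716629 on the minus strand, and at chr19:37376132-37376381 and chr2:119618048-119618297 on the plus strand.
Top2a: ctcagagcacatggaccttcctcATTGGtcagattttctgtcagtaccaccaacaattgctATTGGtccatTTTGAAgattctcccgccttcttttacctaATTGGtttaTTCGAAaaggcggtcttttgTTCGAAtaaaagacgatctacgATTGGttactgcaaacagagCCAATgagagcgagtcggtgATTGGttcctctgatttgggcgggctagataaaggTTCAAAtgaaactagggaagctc
Mki67: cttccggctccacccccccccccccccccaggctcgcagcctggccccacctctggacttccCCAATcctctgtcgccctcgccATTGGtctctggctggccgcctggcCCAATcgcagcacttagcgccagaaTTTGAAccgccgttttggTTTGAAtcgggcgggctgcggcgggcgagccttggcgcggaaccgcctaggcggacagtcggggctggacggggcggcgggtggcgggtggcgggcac
Kif11: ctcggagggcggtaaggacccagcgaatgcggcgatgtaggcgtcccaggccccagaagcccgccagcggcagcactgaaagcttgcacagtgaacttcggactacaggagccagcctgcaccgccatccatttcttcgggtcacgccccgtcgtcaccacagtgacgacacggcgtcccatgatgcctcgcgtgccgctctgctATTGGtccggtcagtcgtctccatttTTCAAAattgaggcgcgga
Nusap1: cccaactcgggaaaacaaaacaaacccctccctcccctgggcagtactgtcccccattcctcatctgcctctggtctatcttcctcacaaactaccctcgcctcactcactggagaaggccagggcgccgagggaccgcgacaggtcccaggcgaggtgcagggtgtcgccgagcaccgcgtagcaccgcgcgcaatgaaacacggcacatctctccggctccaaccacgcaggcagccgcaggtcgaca
Positions of the first base of a match count from the start, with bases before it negative. Top2a held 6 CCAAT matches, the nearest at −58, and 4 CHR matches, the nearest at −23. Mki67 held 3 CCAAT matches and 2 CHR matches, the latter at −116 and −98. In Kif11 a single CCAAT match lay at −45 and a single CHR match at −19. Aurka had 2 CCAAT matches before the start and TTTGAA at position 33, Bub1 had 2 and TTCGAA at position 15, and Cenpe had a single CCAAT match at −12 and neither CHR form in the window.

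Values below are log2 intensities of the probe set with the highest mean of its gene, unless another is named. A gene was called, and is said to have risen or fallen, when limma's adjusted p was below 0.05 and it differed by 2-fold or more, a log2 difference of 1. Group values are means ± SD, and the errors of differences are limma's standard errors (SE), which rest on a spread shared by all 4 groups. The ratios of bacterial hybridisation control transcripts parted the arrays into 3 sets. Set A held the 3 osteoblast cultures, set B 7 primary and all 4 secondary tumours, and set C 8 primary tumours and all 4 cell lines. Set and group therefore cannot be told apart in any comparison against osteoblasts. Secondary tumours and cell lines also share no set, and only the primary tumours, which lie in both B and C, link them. Among the primary tumours none of the 7 genes was called between sets C and B (limma adjusted p 0.391 to 0.871), while 2.41% of all genes were. The mean of 7 adipocyte markers was 11.02 to 11.09 in the cultures and 7.26 or less on the remaining arrays, beside 12.03 to 12.12 for the 6 osteoblast markers measured. The mean of the osteoblast markers ran from 9.50 to 12.12 in the cell lines, 10.13 to 13.09 in primary and 12.19 to 12.96 in secondary tumours.

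Each of the 7 genes had its highest group mean in the secondary tumours, where Nusap1, Aurka and Cenpe rose over osteoblasts. For Top2a that lead over cell lines was 0.04 and turned after 75th percentile scaling. None was called in primary tumours or cell lines against osteoblasts. Within the primary tumours the 7 went together: every one of the 21 gene pairs was positively correlated over the 15 tumours, with Pearson's r from 0.80 to 0.96. The SD among primary tumours was 0.54 (Nusap1) to 0.95 (Kif11), against 0.06 (Top2a) to 0.21 (Cenpe) among the osteoblast cultures. It was 0.41 (Aurka) to 0.61 (Mki67) among cell lines and 0.41 (Mki67) to 0.82 (Bub1) among secondary tumours. Whether these spreads differ from those of other genes was not tested.

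**Figure D1:**
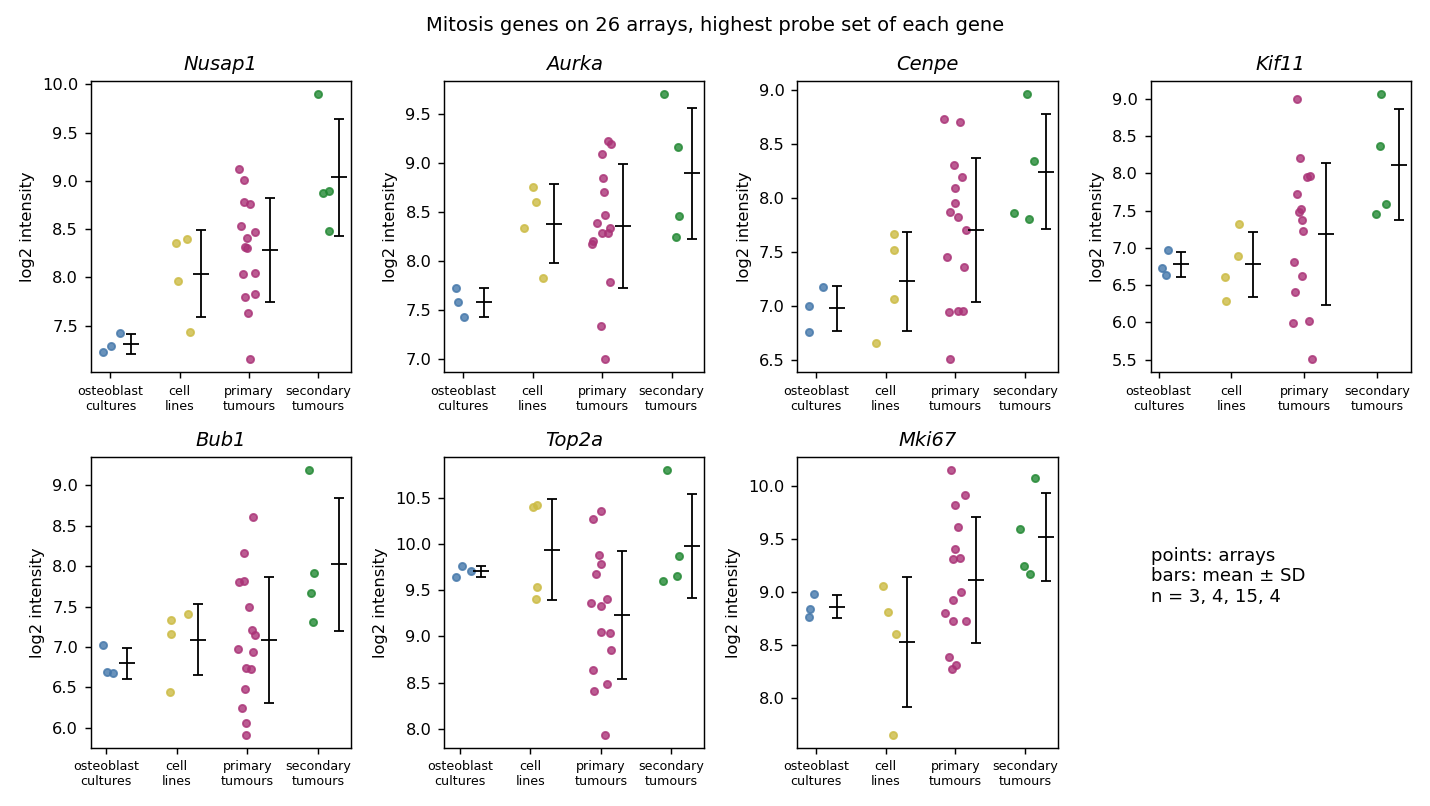
Log2 intensity (vertical axis) of the highest probe set of each of the 7 genes on every array, by sample group, with the group mean and SD as bars (n = 3 osteoblast cultures, 4 cell lines, 15 primary and 4 secondary tumours). All 4 secondary tumours lie above all 3 osteoblast cultures for each gene but Top2a, while primary tumours spread from below the cultures to the level of the secondary tumours.

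The spindle proteins were taken first. Nusap1 encodes a protein that binds and bundles spindle microtubules near chromosomes. Its log2 level was 7.29, 7.43 and 7.23 in osteoblast cultures 1 to 3, and 7.44, 8.36, 7.96 and 8.40 in cell lines 176, 179, 182 and 213. It ran from 7.16 through a median of 8.32 to 9.12 in primary tumours and was 9.90, 8.90, 8.48 and 8.88 in secondary tumours 29, 64, 66 and 94. Secondary tumours and cell lines all lay above the cultures, as did 14 of the 15 primary tumours, all but tumour 12. The mean was 9.04 ± 0.61 in secondary tumours (SD, n = 4) and 7.31 ± 0.10 in osteoblasts (SD, n = 3). Nusap1 rose by 1.72 in secondary tumours over osteoblasts (SE 0.377, limma adjusted p = 0.00106, 3.30-fold). In primary tumours the difference was 0.97 (SE 0.312, adjusted p = 0.0147), just under the fold minimum, and in cell lines 0.72 (SE 0.377, adjusted p = 0.202). The primary value just passed after quantile normalization (1.05) and 75th percentile scaling (1.07), with primary tumours of set C alone (1.00), and without osteoblast culture 2 or primary tumour 12, 87 or 179 (at most 1.05).

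Kif11 encodes the motor that slides spindle poles apart. The osteoblast cultures had log2 levels of 6.64, 6.97 and 6.73, and cell lines 176, 179, 182 and 213 of 6.29, 6.90, 6.61 and 7.32. It ran from 5.51 through 7.37 to 9.0 in primary tumours, the widest range of the 7 genes, and was 9.06, 7.46, 7.59 and 8.36 in secondary tumours 29, 64, 66 and 94. Secondary tumours did not overlap the cultures, whereas 9 primary tumours lay above all of them and 5 below. The difference between secondary tumours and osteoblasts was 1.34 (SE 0.596, limma adjusted p = 0.0827), that of primary tumours 0.41 (SE 0.493, adjusted p = 0.525) and that of cell lines 0.00 (SE 0.596).

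Aurka encodes the kinase that matures centrosomes and builds the spindle poles. On the log2 scale it was at 7.42, 7.58 and 7.72 in the osteoblast cultures and 7.82, 8.75, 8.34 and 8.60 in cell lines 176, 179, 182 and 213. Primary tumours ran from 7.0 through 8.33 to 9.22, and secondary tumours 29, 64, 66 and 94 were at 9.70, 8.46, 8.24 and 9.16. Cell lines and secondary tumours lay wholly above the cultures. The mean was 8.89 ± 0.67 in secondary tumours (SD, n = 4) and 7.57 ± 0.15 in osteoblasts (SD, n = 3). Aurka rose by 1.32 in secondary tumours (SE 0.427, limma adjusted p = 0.0186). The differences of 0.80 in cell lines (SE 0.427, adjusted p = 0.212) and 0.78 in primary tumours (SE 0.353, adjusted p = 0.078) did not pass.

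At the kinetochore, Cenpe encodes the motor that carries chromosomes to the middle of the spindle. Its log2 level was 7.0, 7.18 and 6.77 in the osteoblast cultures and 6.66, 7.52, 7.07 and 7.67 in cell lines 176, 179, 182 and 213. Primary tumours ran from 6.51 through 7.82 to 8.73, and secondary tumours 29, 64, 66 and 94 were at 8.96, 7.86, 7.81 and 8.35. Cell lines straddled the cultures and secondary tumours lay above them. Its means were 8.24 ± 0.53 in secondary tumours (SD, n = 4) and 6.98 ± 0.21 in osteoblasts (SD, n = 3). Cenpe rose by 1.26 in secondary tumours (SE 0.433, limma adjusted p = 0.0255), against 0.72 in primary tumours (SE 0.358, adjusted p = 0.106) and 0.25 in cell lines (SE 0.433, adjusted p = 0.757).

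Bub1 encodes the checkpoint kinase that holds anaphase until every kinetochore is attached. Its level was a log2 of 6.68, 7.02 and 6.69 in the osteoblast cultures and 6.45, 7.41, 7.15 and 7.34 in cell lines 176, 179, 182 and 213. Primary tumours ran from 5.91 through 6.97 to 8.61, and secondary tumours 29, 64, 66 and 94 were at 9.19, 7.67, 7.31 and 7.92. Secondary tumours again did not overlap the cultures, while primary tumours lay on both sides of them. Its difference of 1.23 between secondary tumours and osteoblasts did not pass (SE 0.516, limma adjusted p = 0.067), nor did 0.29 in primary tumours (SE 0.427, adjusted p = 0.601) or 0.29 in cell lines (SE 0.516, adjusted p = 0.761).

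On the chromosomes, Top2a encodes the topoisomerase that untangles sister DNA. Its log2 level was 9.64, 9.77 and 9.70 in the osteoblast cultures and 9.53, 10.42, 9.40 and 10.40 in cell lines 176, 179, 182 and 213. Primary tumours ran from 7.94 through 9.33 to 10.36, and secondary tumours 29, 64, 66 and 94 were at 10.80, 9.87, 9.60 and 9.66. All groups overlapped the cultures, and only 4 of the 15 primary tumours lay above them. The difference from osteoblasts was −0.47 in primary tumours (SE 0.378, limma adjusted p = 0.322), 0.28 in secondary tumours (SE 0.457, adjusted p = 0.67) and 0.23 in cell lines (SE 0.457, adjusted p = 0.785). With the mean of its probe sets in place of the highest the primary value was 0.06.

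Mki67 encodes Ki-67, a coat protein of mitotic chromosomes and the standard stain for dividing cells. In the osteoblast cultures its log2 level was 8.77, 8.98 and 8.84, and 7.65, 9.05, 8.60 and 8.82 in cell lines 176, 179, 182 and 213. Primary tumours ran from 8.27 through 9.0 to 10.15, and secondary tumours 29, 64, 66 and 94 were at 10.08, 9.59, 9.17 and 9.24. Secondary tumours lay above the cultures, cell line 176 far below them. No difference from osteoblasts passed: 0.66 in secondary tumours (SE 0.401, limma adjusted p = 0.21), 0.25 in primary tumours (SE 0.332, adjusted p = 0.564) and −0.33 in cell lines (SE 0.401, adjusted p = 0.635).

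Counted together, 3 of the 7 genes were higher in secondary tumours than in osteoblasts, where 7.71% of all 12887 genes were called higher. The groups did not overlap for 6 of the 7, against 24.1% of all genes. None of the 7 was called by limma in primary tumours (6.58% of all genes higher, 11.9% lower) or cell lines (1.58% higher, 6.64% lower), where 2 and 0 of them had an unadjusted p under 0.05, against 50.4% and 29.1% of all genes. Cell lines and osteoblasts did not overlap for 2 of the 7, Nusap1 and Aurka, and for 13.2% of all genes. The median difference of the 7 was 1.26 in secondary tumours, 0.41 in primary tumours and 0.25 in cell lines, beside −0.025, −0.065 and −0.103 over all genes. These comparisons share the same 3 cultures. The count of 3 rested on single arrays: only Nusap1 remained without secondary tumour 29 (1.44) or without osteoblast culture 1 (1.71). Aurka was also lost without culture 2 (1.32), and Cenpe without culture 3 (1.15) or secondary tumour 94 (1.23). It was 5 with limma's array weights and 5 with only both groups in the fit, where Kif11 and Bub1 also passed. Beside these values, 10 of 11 macrophage and 7 of 9 endothelial markers were called higher in secondary tumours than in osteoblasts, with mean macrophage levels of 8.54 to 10.27 against 5.32 to 5.45 and C1qa at the floor in all cultures. The part of these cells in the result was not tested.

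Several genes had further probe sets. In the fit of all 27308 kept probe sets, 6 of the 12 kept for these genes were called higher in secondary tumours than in osteoblasts (12.9% of all probe sets). They were both of Nusap1 (1.72 and 1.31), both of Cenpe (1.26 and 1.26), the only kept one of Aurka (1.32) and 1 of 3 of Kif11, at 1.57 (SE 0.544, limma adjusted p = 0.0242). None was called in primary tumours (22.2% of all probe sets called) or cell lines (7.35%). The count of 6 fell to 2 without secondary tumour 29 or osteoblast culture 1, and to 3 without culture 3. Over the 15 primary tumours the second Cenpe probe set had an r of 0.95 with the first, and the other pair of Kif11 had 0.91 and 0.93. Second probe sets of Nusap1, Bub1, Top2a and Aurka had lower values of r, 0.50, 0.51, 0.46 and 0.34.

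The Top2a probe sets went in opposite directions between primary tumours and osteoblasts. The brightest differed by −0.47 (SE 0.378), while the dimmer kept one differed by 0.59 (SE 0.189, limma adjusted p = 0.0128), below the fold minimum, and r between them over the primary tumours was 0.46. The remaining one lay at the floor on all 26 arrays and measured nothing here. The second probe sets of Aurka and Bub1, at the floor on 11 and 2 arrays, did not pass the filter. That of Nusap1 was kept but dim, above the filter's level on 4 arrays only. Mki67 had a single probe set.

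**Figure D2:**
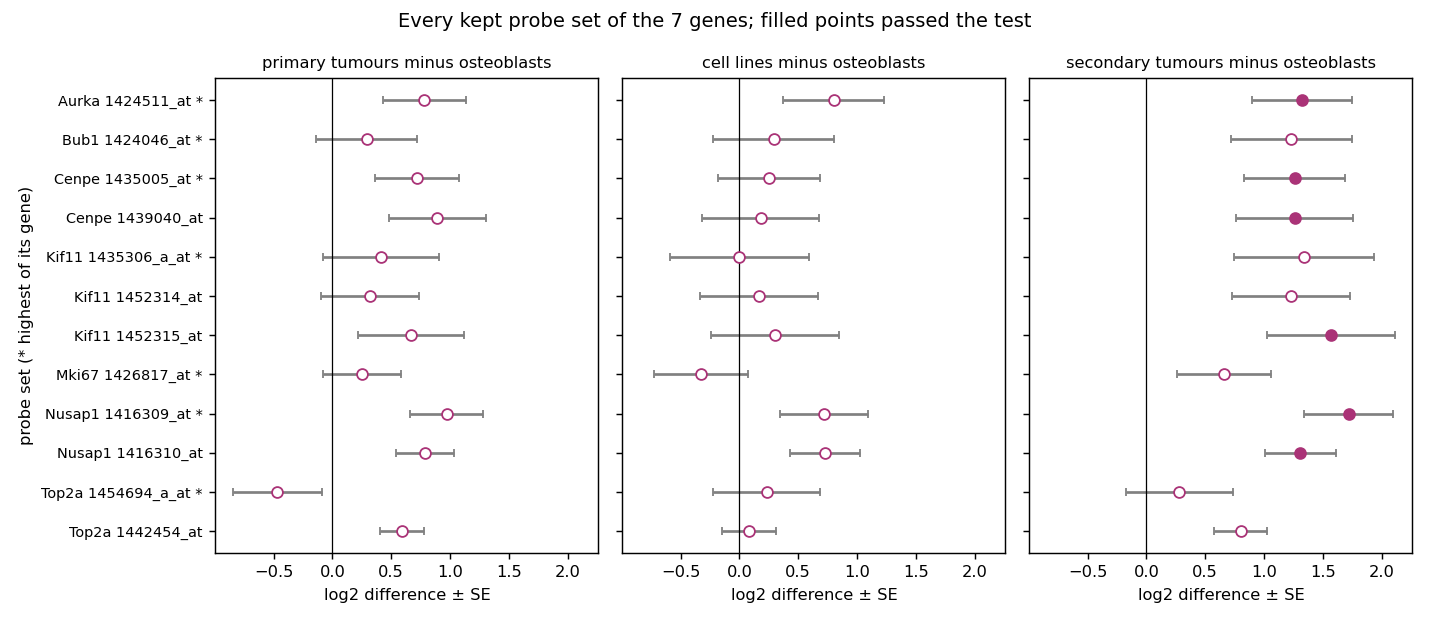
Log2 difference from the osteoblast cultures (horizontal axis, ± SE) for each of the 12 kept probe sets, in primary tumours, cell lines and secondary tumours from left to right. Filled points were called, 6 of 12 in secondary tumours and none in the other groups, and the Top2a probe sets lie on opposite sides of 0 in primary tumours.

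Cell lines and tumours were then set against each other. Of the 7 genes, 1 was higher in secondary tumours than in cell lines, where 8.40% of all genes were: Nusap1, by 1.00 (SE 0.349, limma adjusted p = 0.0322, 2-fold). The groups did not overlap for Nusap1, Cenpe, Kif11 and Mki67, 4 of the 7, against 19.8% of all genes. Differences of 1.34 for Kif11 (adjusted p = 0.0675), 1.02 for Cenpe (0.0564) and 0.99 for Mki67 (0.0458, under the fold minimum) did not pass, and Top2a differed by 0.04 (SE 0.423, adjusted p = 0.949). The call of Nusap1 lay at the threshold and was lost without cell line 176 (0.80) or 182 (0.97) or secondary tumour 29 (0.71), and after quantile normalization (0.92) or 75th percentile scaling (0.84). With the control set as a block it was 1.08 (limma adjusted p = 0.141) and not called. The count was 2 without cell line 179, secondary tumour 66 or primary tumour 66, and 3 without primary tumour 12 or 29. All 11 macrophage markers were higher in secondary tumours than in cell lines (mean 8.54 to 10.27 against 5.24 to 5.61), as were 7 of 9 endothelial markers (6.66 to 8.05 against 5.05 to 5.16) and 2 of 6 osteoblast markers, Sp7 by 2.55 and Alpl by 2.96. Of 9 muscle markers 3 were lower. Their part in the result was not tested.

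None of the 7 was called between cell lines and primary tumours, where 4.72% of all genes were higher and 7.03% lower. At an unadjusted limma p under 0.05, which 46.7% of all genes reached, 1 of the 7 differed: Top2a, higher in the lines by 0.71 (SE 0.336, adjusted p = 0.101), and Mki67 differed by −0.58 (SE 0.296, adjusted p = 0.125). The second kept probe set of Top2a differed the other way, by −0.51 (SE 0.168, limma adjusted p = 0.0172), below the fold minimum. Within set C, which holds all lines and 8 of the primary tumours, Top2a differed by 0.57, Mki67 by −0.54, Cenpe by −0.40, Kif11 by −0.35, Nusap1 by −0.28 and Bub1 by 0.05, and Aurka turned from 0.03 to −0.15. None was called between secondary and primary tumours either, a comparison in which 0.00776% of all genes, a single gene, passed as higher. At an unadjusted limma p under 0.05, 4 of the 7 differed, Nusap1, Kif11, Bub1 and Top2a, and 9.47% of all genes did. All 7 differences were above 0 there, from 0.41 for Mki67 (SE 0.296, limma adjusted p = 0.656) to 0.93 for Kif11 (SE 0.439, adjusted p = 0.516) and Bub1 (SE 0.380, adjusted p = 0.47). Their median was 0.75 beside 0.042 over all genes. Within set B, which holds all secondary and 7 of the primary tumours, they ran from 0.36 (Mki67) to 0.91 (Top2a). The mean of 9 muscle markers was 4.28 to 4.75 in secondary and 4.48 to 10.92 in primary tumours, with medians of 4.45 and 7.99. Of their differences 0 were above 0, the median was −3.84 and none was called. The part of muscle in the result was not tested.

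Each secondary tumour carries the number of a primary tumour, and over all genes each resembled the primary of its own number more than any other. Against that tumour, numbers 94, 29 and 64 were higher in 7, 6 and 6 of the 7 genes, and number 66, the one grown from a cell line, was lower in all 7. For number 94 the differences ran from 0.47 (Cenpe) to 1.18 (Bub1), for 29 from −0.08 (Mki67) to 0.78 (Nusap1), for 64 from −0.06 (Kif11) to 0.51 (Top2a), and for 66 from −0.89 (Cenpe) to −0.18 (Top2a). With tumour number as a replicate block over these pairs, the differences shrank to 0.44 for Nusap1, 0.43 for Bub1, 0.45 for Top2a and 0.29 for Aurka, and were 0.01 for Kif11, 0.00 for Mki67 and −0.04 for Cenpe, with none called. Primary tumours 29 and 66 were themselves among the highest of the 15. Cell lines 176, 179 and 182 share a number with a primary tumour, without resembling it more than other tumours. Line 179 was higher than its tumour in all 7 genes, from 0.57 to 1.93 with Top2a the highest, line 182 was lower in all 7, from −1.13 to −0.27, and line 176 was lower in 6, from −1.35 (Mki67), and higher in Top2a by 0.21.

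**Figure D3:**
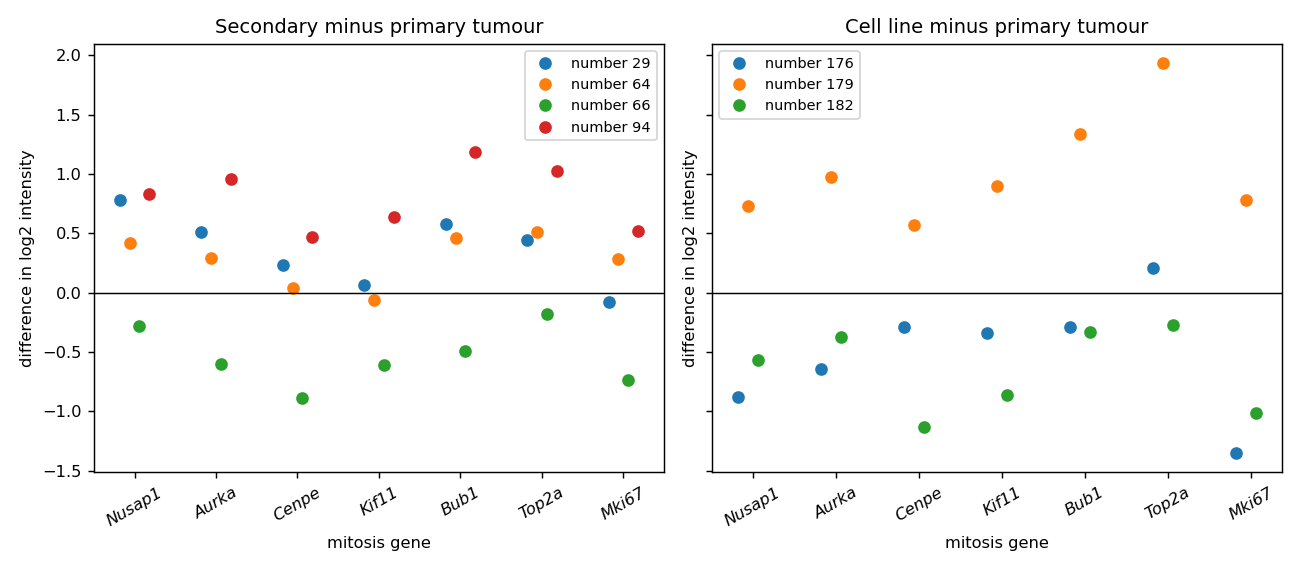
Difference in log2 intensity (vertical axis) between each secondary tumour (left) or cell line (right) and the primary tumour of the same number, for the 7 genes. In each panel the numbers part into those with points mostly above 0 (29, 64, 94 and 179) and those mostly below it (66, 176 and 182).

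Across the 15 primary tumours the 7 genes gave nearly one order. Tumour 29 had the highest value for 6 genes and tumour 353 for Aurka, and 353 was among the highest 3 for all 7. Tumour 12 was the lowest for 5 genes, 331 for Bub1 and 179 for Mki67. Some tumours changed place between genes: tumour 331 ranked 15 for Bub1 (5.91) and 8 for Kif11 (7.37), and tumour 176 ranked 14 for Cenpe (6.95) and 6 for Aurka (8.47).

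**Figure D4:**
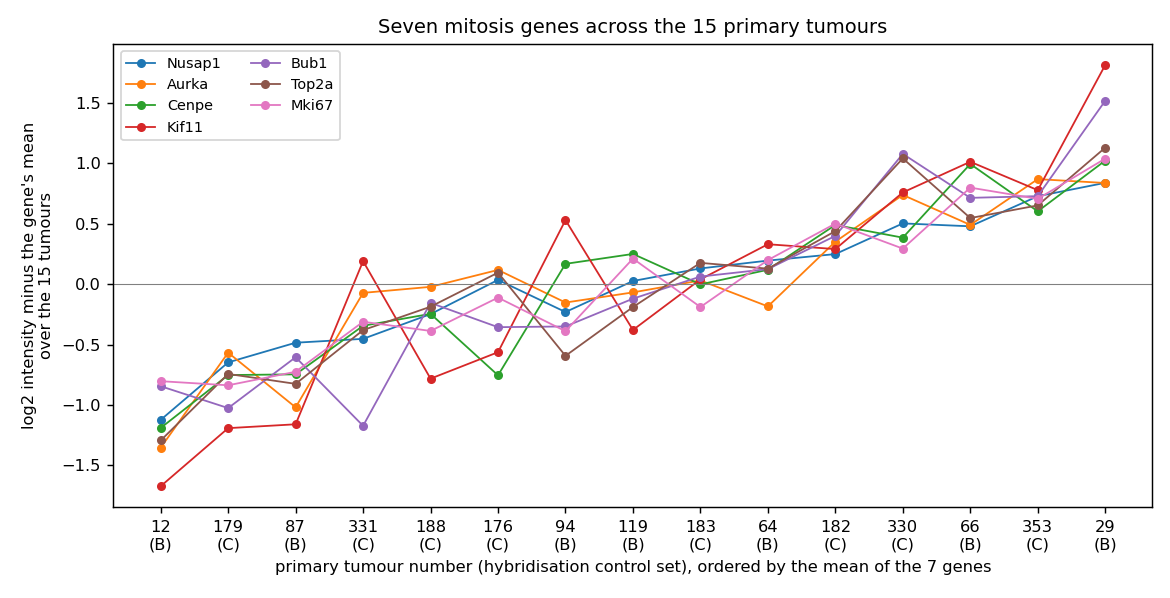
Log2 intensity of each gene minus its mean over the 15 primary tumours (vertical axis), with tumours ordered by the mean of the 7 genes (horizontal axis; B and C are the hybridisation control sets). The lines climb together from tumour 12 to tumour 29, tumours of both sets lie near either end, and Kif11 spans the widest range.

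The 21 correlations between genes were tested over the 15 tumours with a two-sided permutation test of 100000 resamples and Benjamini-Hochberg adjustment over the pairs, and 21 passed. The highest was that of Nusap1 and Top2a (r = 0.96, Spearman's rho = 0.97, permutation p = 1e-05, the smallest these resamples can give, adjusted p = 3.5e-05). The lowest was that of Kif11 and Bub1 (r = 0.80, rho = 0.81, permutation p = 0.00024, adjusted p = 0.00024). The median r was 0.89. Without the 2 tumours farthest from the median of the first gene of a pair, r ran from 0.69 to 0.93 and 21 pairs passed. Within the 7 tumours of set B, r ran from 0.88 to 0.99 and 21 passed an exact permutation test, and within the 8 of set C from 0.70 to 0.95 and 20 passed, all but Kif11 and Bub1 (exact permutation adjusted p = 0.0569). The cultures and other groups were too few for a correlation. The 7 genes were chosen with earlier results of these data known, so the p-values of the pairs are not an independent test. The share of other gene pairs that would pass was not computed.

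The same was done for each of the 7 genes against the mean of 16 other gene lists and 2 measures of array quality, 126 relations in one family, of which 44 passed. The means of 5 other mitosis lists, covering spindle proteins, kinetochore, checkpoint, kinases and cyclins, and chromosome condensation, followed all 7 genes (r from 0.85 to 0.95, rho from 0.76 to 0.97, 35 of 35 passing, highest permutation adjusted p = 0.000306), with r of 0.92 to 0.99 within set B and 0.75 to 0.99 within set C. The mean of S phase genes gave r from 0.62 (Cenpe) to 0.83 (Top2a), rho from 0.57 to 0.89 and 7 of 7 passing (permutation adjusted p from 0.000259 to 0.0349). For Cenpe the adjusted permutation p of rho was 0.0873. Whether the S phase list differs from the mitosis lists in this was not tested. Without the 2 tumours farthest from the median of the S phase mean, r ran from 0.61 to 0.92, and within sets B and C from 0.62 to 0.89 and from 0.73 to 0.94.

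No relation with the means of macrophage, endothelial, muscle, fat, erythroid, myeloid precursor, osteoclast, osteoblast or T and NK cell markers passed. Macrophage markers gave r from −0.44 to −0.04 (rho −0.33 to 0.08, lowest permutation adjusted p = 0.241), and osteoblast markers −0.45 to −0.20 (rho −0.52 to −0.30, lowest permutation adjusted p = 0.241). Within sets B and C macrophage markers gave −0.59 to −0.20 and −0.21 to 0.15, osteoblast markers −0.27 to 0.07 and −0.73 to −0.39, and erythroid markers 0.06 to 0.34 and −0.73 to −0.29. Neutrophil and myeloid precursor markers gave −0.08 to 0.11 over all tumours, and 0.35 to 0.66 in set B against −0.38 to −0.07 in set C. For the remaining lists r ran from −0.01 to 0.26 (endothelium), −0.34 to −0.17 (muscle), −0.44 to −0.09 (fat), −0.17 to 0.14 (erythroid), −0.18 to 0.11 (osteoclast) and 0.07 to 0.29 (T and NK cells, 2 genes). Within sets B and C, in the same order without erythroid markers, it ran from 0.21 to 0.55 and −0.20 to 0.10, −0.28 to 0.03 and −0.63 to −0.27, −0.49 to −0.11 and −0.38 to −0.01, −0.37 to −0.09 and −0.10 to 0.23, and 0.21 to 0.47 and −0.16 to 0.32. Of the B and plasma cell markers only the immunoglobulin gene Ighm was measured, and it passed with 2 of the 7 genes (r from 0.44 to 0.68 over the 7, highest with Bub1, lowest permutation adjusted p = 0.0146). Without the 2 tumours farthest from its median, r was 0.25 to 0.52, and within sets B and C it was 0.40 to 0.56 and 0.70 to 0.90. Ighm lay at 7.08 to 7.36 in the osteoblast cultures, 6.67 to 7.01 in cell lines and 6.75 to 8.12 in primary tumours. The T and NK cell mean was 5.67 to 6.14, 5.99 to 6.24 and 5.76 to 6.33 in that order. Both overlapped the levels of the cultures, and whether either follows such cells here was not tested. The Gapdh 5′ to 3′ control ratio, which falls when RNA is degraded, gave r from −0.28 to 0.18 and the array median −0.37 to 0.03, and neither passed with any gene. Within sets B and C the ratio gave −0.33 to −0.15 and −0.55 to −0.23, and the array median 0.03 to 0.33 and −0.68 to −0.38.

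**Figure D5:**
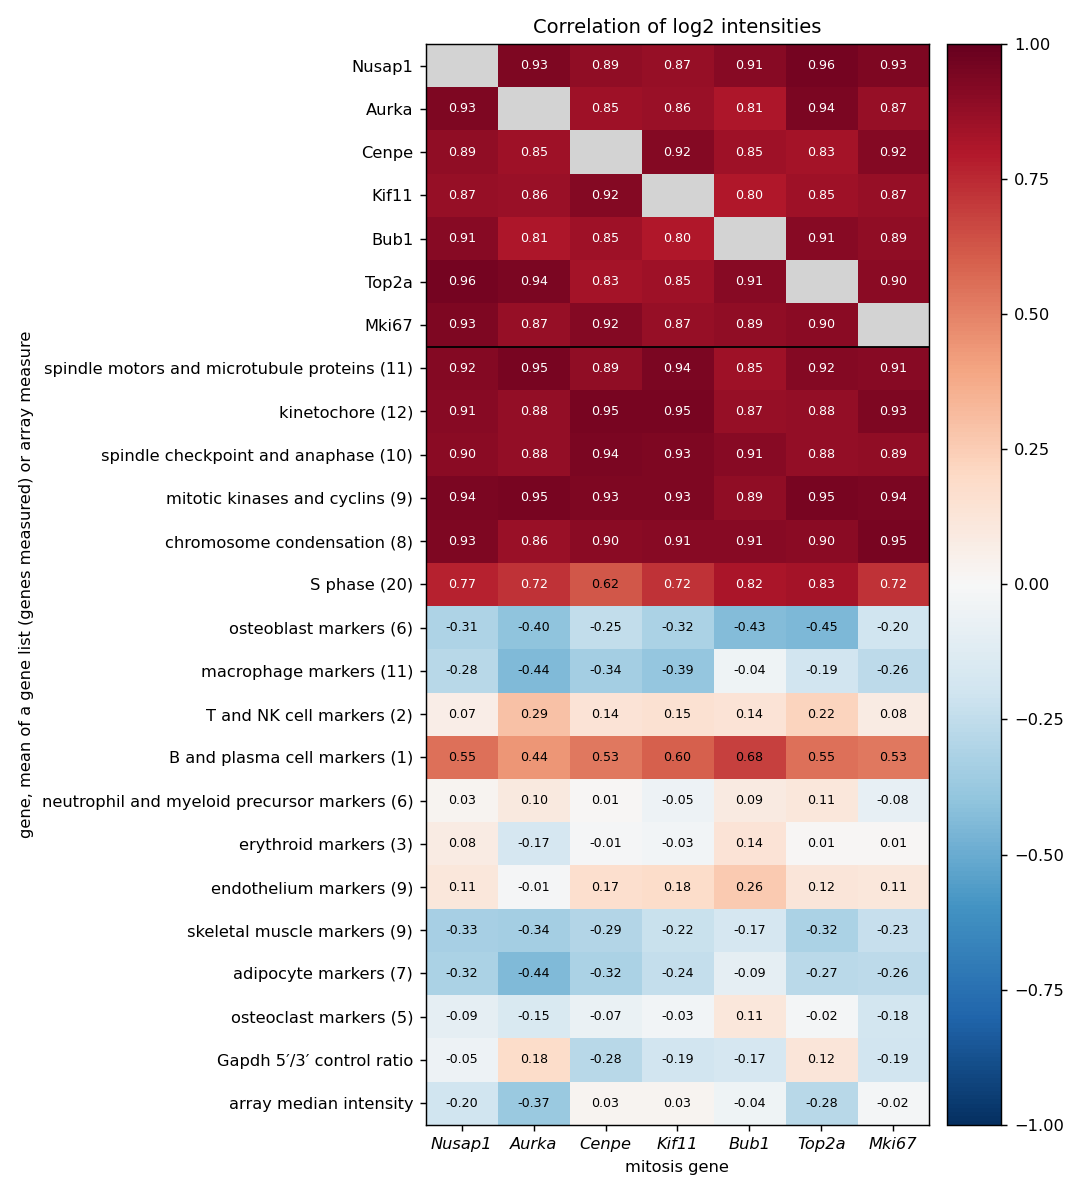
Pearson's r over the 15 primary tumours between each of the 7 genes (columns) and the other 6, the mean of each gene list (number of genes measured in brackets) and 2 array measures (rows), on a colour scale from −1 to 1. Values among the 7 genes lie between 0.80 and 0.96 and with the other mitosis lists between 0.85 and 0.95. Those with markers of other cell types lie near or below 0 except for Ighm, the only B and plasma cell marker measured.

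The genes most like the mean of the 7 over the primary tumours were, as a description without a test, Pclaf (r = 0.968), a PCNA-binding protein, the spindle protein Spag5 (0.965), the chromosomal passenger subunit Cdca8 (0.956), the condensin subunits Ncaph (0.956) and Smc4 (0.95), the spindle assembly factor Tpx2 (0.947), the kinase Melk (0.946), the centromeric histone Cenpa (0.945), cyclin A2 Ccna2 (0.944) and the kinase Aurkb (0.943). Of these 10, 8 are in the mitosis lists. Over all other genes the middle 90% of r ran from −0.41 to 0.49. The r of each of the 7 with the mean of the other 6 was 0.90 (Kif11, Bub1) to 0.97 (Nusap1).

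Other genes of the machinery were described by the 5 fixed mitosis lists, with 50 of 53 genes measured. In secondary tumours against osteoblasts 10 rose and 1 fell (background 7.71% higher and 10.8% lower), and the median difference was 0.59. Separase, Espl1, which cuts the ring that holds sister chromatids, rose by 2.26, and at the kinetochore Cenpf rose by 1.42, the scaffold Knl1 by 1.35, the passenger subunit Incenp by 1.27 and Cenpa by 1.15. The transcription factor Foxm1, which switches on mitosis genes, and the phosphatase Cdc25c, which starts mitosis, rose by 1.29 each, the centrosome kinase Nek2 by 1.17, the motor Kif22 by 1.14 and the condensin subunit Ncapg2 by 1.10. Zwint, which helps recruit the checkpoint to kinetochores, fell by 1.49, and no gene fell with the mean of probe sets in place of the highest. Without secondary tumour 29 there were 4 calls and without osteoblast culture 1 there were 7.

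In primary tumours against osteoblasts 2 of the 50 passed, Espl1 higher by 1.38 and Zwint lower at −1.5, where 6.58% of all genes were higher and 11.9% lower. The median was 0.11. Without primary tumour 29 the count was 4. With primary tumours of set C alone 0 were higher and 2 lower, so Espl1 was not called. With the mean of probe sets in place of the highest, 3 were higher and 0 lower, so Zwint was not called. In cell lines against osteoblasts 0 of the 50 passed with limma (1.58% of all genes higher and 6.64% lower). The median was 0.11, 2 had an unadjusted p under 0.05, against 29.1% of all genes, and 1 passed, as lower, without primary tumour 87 or 176. In secondary tumours against cell lines 7 were higher and 1 lower: Espl1 (1.73), Cenpf (1.65), the checkpoint kinase Ttk (1.49), Nuf2 of the Ndc80 complex (1.46), Kif22 (1.46), Knl1 (1.15), Ncapg2 (1.14) and Zwint (−1.10), where 8.40% of all genes were higher and 4.77% lower. This count was 3 without cell line 182, 4 without secondary tumour 29 and 5 without cell line 179, and with the control set as a block none of them was called. With the mean of probe sets 9 were higher and 0 lower, so Zwint was not called. In cell lines against primary tumours Zwint was higher by 1.10 and Kif22 lower at −1.01, and without cell line 213 neither was called, while 1 was without any one of the 7 primary tumours of set B. Neither was called with the control set as a block, where Cenpk of the inner kinetochore was higher, or with tumour number as a replicate block. These 2 calls stood against 4.72% of all genes higher and 7.03% lower. With the mean of probe sets 0 were higher and 1 lower, so Zwint was not called here either. Between secondary and primary tumours 0 passed with limma (15 at an unadjusted p under 0.05, against 9.47% of all genes). All 50 differences were above 0 there, with a median of 0.53 beside 0.042 over all genes. The means of these lists followed the same 7 genes over the primary tumours, so the 50 signs are not independent. With tumour number as a replicate block over the pairs, 42 of the 50 were above 0 and none was called. The median was 0.15 beside −0.004 over all genes.

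The genes that license and copy DNA before mitosis were kept as a separate list, with 20 of 21 measured. In primary tumours against osteoblasts 3 rose and 1 fell, in secondary tumours 3 rose, and in cell lines 5 rose. Over all genes 6.58% rose and 11.9% fell in primary tumours, 7.71% rose in secondary tumours and 1.58% in cell lines. Among them Cdt1, which loads the replicative helicase, rose by 1.13, 1.28 and 1.89 in that order, and the helicase subunit Mcm2 by 1.03, 1.26 and 1.42. Mcm3 of the same helicase rose by 1.02, 1.07 and 1.20. In cell lines Mcm7 rose by 1.11 and the transcription factor E2f2 by 1.71, and in primary tumours the loading factor Cdc6 fell by 1.42. Between the other groups, Cdc6 (1.40) and E2f2 (1.15) were higher in cell lines than in primary tumours, and cyclin E1, Ccne1, was lower there (−1.10) and higher in secondary tumours than in cell lines (1.15). The median difference of the list was 0.46, 0.64 and 0.71 in that order, beside 0.41, 1.26 and 0.25 for the 7 genes. The calls of this list were not repeated under other settings. Those of Mcm2 at 1.03 and Mcm3 at 1.02 and 1.07 lay near the fold minimum. E2f2 had a limma adjusted p of 0.0426 in cell lines against osteoblasts.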

How the data were processed

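Per the labels' protocols, cDNA was made with oligo-dT and transcribed into biotinylated cRNA for 1-colour arrays. Each probe set has a single deposited intensity per array, linear, from 0.497 to 21734. For the authors' summarisation, background correction and scaling, the method is not given in the sources used here. Array medians lay between 44.4 and 58.8, and the values were used without further scaling. Probe sets were named from the platform annotation, with symbols updated through a RefSeq table of GRCm38.p6: 34958 carried 1 symbol, 932 several and 9211 none.

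Intensities below the 20th percentile over all arrays (12.5, or 3.64 on the log2 scale) were set to it, and log2 was taken. Probe sets with at least 3 of 26 arrays above the overall median (52.6) were kept, and the brightest of them on average stood for each of 12887 genes. limma 3.58.1 in R 4.3.3 was fitted to all 26 arrays, with 6 contrasts between 4 groups and Benjamini-Hochberg adjustment over all genes. The fits were tested on simulated data. Over all genes, deviations from the group mean correlated at 0.224 to 0.642 between secondary and primary tumours of one number, which pairs them. For cell lines the values were 0.035 to 0.081, and whether a line came from the tumour of its number was not tested. The most alike arrays, osteoblast cultures 1 and 2, shared 0.574% identical values, so no array was a copy.

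The members, lists and tests were chosen with earlier results of these data known. Named were the 7 genes, up to 6 called genes per list and comparison with the largest differences, and the 10 genes most alike over the primary tumours. Of 166 list genes 136 were measured. The alternatives covered floor, filter, normalization, probe set choice, array weights, samples in the fit, control set, tumour number and leaving out each array. The number of arrays limits the precision.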

Additional observations from a re-analysis of the deposited data

How the results depend on the processing

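The small groups, of 3 or 4 arrays beside the primary tumours, limit the precision of each difference, and the osteoblast cultures lie in a control set of their own. Of 553 differences of a single gene under the settings that left out no single array, 527 kept their direction and their side of the threshold, and of 1092 with 1 array left out 1061 did. Most came from differences that the main fit did not call, so staying uncalled counted as kept. In secondary tumours against osteoblasts Nusap1 stayed called under 11 of 11 settings, and Aurka and Cenpe under 10 of 11 each. With 1 array left out they did so in 26, 23 and 22 of 26 fits. Nusap1 in secondary tumours against cell lines stayed called under 6 of 12 settings and in 23 of 26 fits.

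Members called in primary tumours against osteoblasts were 1 in place of 0 (Nusap1) after quantile normalization, 75th percentile scaling and with primary tumours of set C alone, and 0 to 1 with 1 array left out. The other mitosis genes numbered 5 in place of 2 after quantile normalization, and 4 after 75th percentile scaling, with set B alone and without both tumours numbered 29, and 2 to 4 with 1 array left out. In cell lines against osteoblasts 1 in place of 0 passed, as lower, with array weights and with only the compared groups, and 0 to 1, again lower, with 1 array left out. In secondary tumours against osteoblasts the members numbered 5 in place of 3 with array weights and with only the compared groups, 1 without both tumours numbered 29 (chosen after seeing the data), and 1 to 4 with 1 array left out. The other mitosis genes numbered 18 in place of 11 after quantile normalization and with array weights, 5 without both tumours numbered 29, and 4 to 16 with 1 array left out. In cell lines against primary tumours they numbered 1 in place of 2 after 75th percentile scaling, with the mean of probe sets, with primary tumours of set C alone, with the control set as a block, with tumour number as a random replicate block and without both tumours numbered 29; 4 with set B alone; 0 with tumour number as a replicate block; and 0 to 3 with 1 array left out. In secondary against primary tumours 7 in place of 0 passed with primary tumours of set C alone, where set and group cannot be told apart, and 0 with 1 array left out. In secondary tumours against cell lines the members numbered 0 in place of 1 after either scaling, with the mean of probe sets, with the control set as a block and without both tumours numbered 29, 3 with only the compared groups, and 0 to 3 with 1 array left out. The other mitosis genes numbered 5 in place of 8 after either scaling, 0 with the control set as a block, 4 without both tumours numbered 29, and 3 to 10 with 1 array left out.

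Of the 12 kept probe sets, settings added after seeing the data gave 1 in place of 0 in primary tumours against osteoblasts after either scaling, and 0 to 1 with 1 array left out. In secondary tumours against osteoblasts they gave 2 to 9 with 1 array left out. In secondary tumours against cell lines they gave 2 in place of 1 without the filter, 0 after either scaling, and 0 to 5 with 1 array left out. The median r of the pairs was 0.95 in set B in place of 0.89.

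Signs turned only for differences that were not called. Top2a turned to 0.06 in primary tumours against osteoblasts with the mean of probe sets, and to −0.11 in secondary tumours against cell lines after 75th percentile scaling and −0.23 without both tumours numbered 29 (−0.23 to 0.20 with 1 array left out). Aurka turned to −0.15 in cell lines against primary tumours with set C alone and with the control set as a block, to −0.01 with tumour number as a replicate block, and to −0.10 to 0.21 with 1 array left out. Cenpe turned to −0.04 in secondary against primary tumours with tumour number as a replicate block. Tumour number as a replicate block was fitted only for secondary tumours and cell lines against primary tumours. No member was called there with or without it, so no call could be lost. Where a cause is not given by the alternative itself, the cause was not tested. Quantile normalization and 75th percentile scaling moved the median log2 difference of all genes in secondary tumours against cell lines from 0.073 to −0.080 and −0.083, in cell lines against osteoblasts from −0.103 to 0.060 and 0.076, and in primary tumours against osteoblasts from −0.065 to 0.009 and 0.041. The share of higher calls moved from 63.8% to 47.6% and 47.1%, from 19.2% to 30.5% and 35.7%, and from 35.7% to 40.4% and 45.1% in the same order, and in cell lines against primary tumours from 40.2% to 50.6% and 48.1%.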
